A study of Mus musculus with 2 samples.

Results

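A set of 50 interferon-stimulated genes was followed by name in single-cell RNA-seq of immune cells from the mouse liver, of which 49 had a row among the 27998 gene rows of the count tables; Mx2 was not analysed here. The members were taken by gene symbol in both tables, and Gbp6 was summed over its 2 rows. The cells came from adult wild-type C57BL/6 mice of 7 to 10 weeks, with no treatment named, and were sorted through one of 2 gates. The LSM gate took CD45+Lin-Sca-1+Mac-1+ cells and the other took CD45+Lin-CD122+CD49a+ cells, so both share the CD45+ and lineage-negative selection, and the labels give neither the number of mice pooled nor the lineage antibodies used. Each gate is 1 droplet library, so differences have no replicate check: intervals are 95% and cover counting error only, "higher" and "lower" mean at least 2-fold between summed counts, and no p-value is given.

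Barcodes with at least 500 detected genes were kept: 3074 of 3133 in the LSM library and 1257 of 1655 in the CD122+CD49a+ library. A unique molecular identifier (UMI) marks 1 captured transcript, and the median barcode held 5100 UMIs in the LSM library and 1461 in the other. The libraries shared 3 barcode sequences as deposited, and 2 among the barcodes kept. Ptprc, which encodes CD45, had a UMI in 70.4% of LSM and 84.1% of CD122+CD49a+ barcodes. Il2rb, which encodes CD122, stood at 256 CPM (UMIs of a gene per 1000000 UMIs of the group) in the CD122+CD49a+ library and 0.865 CPM in the LSM library, and Itga1, for CD49a, at 42.1 and 1.36 CPM. Ly6a, which encodes Sca-1, stood at 194 and 154 CPM, and Itgam, for Mac-1, at 37.9 CPM in LSM and 39.6 CPM in CD122+CD49a+. The Itgam transcript was thus alike in both gates and gave no check of Mac-1. Ly6a was under 2-fold apart and gave little check of Sca-1.

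Interferons are cytokines that set off an antiviral program in the cells that sense them. Type I interferons act through the Ifnar1 and Ifnar2 receptor chains, and many genes they induce carry a DNA element called the interferon-stimulated response element (ISRE). Type II interferon, interferon-gamma, acts through Ifngr1 and Ifngr2 and on genes with a gamma-activated site (GAS), and it is made mainly by T and natural killer lymphocytes. The Ifit, Oas and Mx genes encode proteins that block foreign RNA or virus particles and are mostly driven by type I interferon, whereas the guanylate-binding proteins (Gbp) and the immunity-related GTPases (IRG: Igtp, Irgm1, Irgm2, Iigp1, Tgtp2, and Ifi47) attack the vacuoles of pathogens and respond most to interferon-gamma. Many members respond to both, so a level assigns no cell to one type of interferon.

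Promoter sequences are shown first, with both elements searched in the members of each group. RefSeq windows from 250 bases before to 50 after the start, on GRCm38.p6, were matched by symbol for 39 of the 50 genes. The ISRE core was searched as GAAANNGAAA and the GAS as TTCNNNGAA, on both strands, and matches to one motif may overlap the other. The ISRE core was found in 23 of 39 members (59.0%), against 3.99% of 27025 genes with such a window. It was found in 8 of 9 GTPase genes matched (Gbp2, Gbp3, Gbp5, Gbp7, Igtp, Irgm1, Irgm2, Tgtp2) and in 4 of 7 Ifit, Oas and Mx genes (Ifit1, Ifit3, Oas1a, Oas3). The GAS was found in 11 of 39 members (28.2%) against 9.55% of genes, among them 5 of 9 GTPase genes and 2 of 7 Ifit, Oas and Mx genes. Both motifs stood in 8 of 39 members against 0.540% of genes. By gene, the ISRE core thus stood in 88.9% of the matched GTPase genes and 57.1% of the matched Ifit, Oas and Mx genes. The stretches below, 5′ to 3′ along the gene's strand, are from 3 members of each group that hold the ISRE core. Capitals mark ISRE core matches and, in Oas1a and Igtp, also the GAS match. A match is a description of letters, not a bound site. Shown are Oas1a at chr5:120907526-120907775 (minus strand), Ifit3 at chr19:34583279-34583528 (plus), Ifit1 at chr19:34640744-34640870 (plus), Gbp2 at chr3:142620594-142620623 (plus), Irgm1 at chr11:48871425-48871454 (minus) and Igtp at chr11:58199306-58199555 (plus), all outside annotated exons or kept to the bases around the match.
Oas1a: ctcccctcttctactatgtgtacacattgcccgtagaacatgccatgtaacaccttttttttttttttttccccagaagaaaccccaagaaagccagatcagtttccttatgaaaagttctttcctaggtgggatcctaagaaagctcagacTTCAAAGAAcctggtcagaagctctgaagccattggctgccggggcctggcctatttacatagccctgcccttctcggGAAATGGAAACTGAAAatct
Ifit3: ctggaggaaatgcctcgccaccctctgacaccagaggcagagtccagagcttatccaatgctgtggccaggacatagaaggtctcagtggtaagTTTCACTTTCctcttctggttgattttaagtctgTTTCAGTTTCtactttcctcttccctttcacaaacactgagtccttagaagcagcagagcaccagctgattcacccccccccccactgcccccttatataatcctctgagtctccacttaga
Ifit1: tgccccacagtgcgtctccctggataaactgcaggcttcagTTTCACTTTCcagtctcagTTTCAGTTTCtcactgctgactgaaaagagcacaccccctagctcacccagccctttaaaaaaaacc
Gbp2: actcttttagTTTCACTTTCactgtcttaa
Irgm1: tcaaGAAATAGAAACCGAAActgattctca
Igtp: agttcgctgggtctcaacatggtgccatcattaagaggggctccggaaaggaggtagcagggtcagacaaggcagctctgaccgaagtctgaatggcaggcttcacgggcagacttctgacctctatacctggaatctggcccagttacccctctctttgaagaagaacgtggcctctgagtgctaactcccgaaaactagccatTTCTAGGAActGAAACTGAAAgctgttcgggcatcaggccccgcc

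In Oas1a the ISRE core began 20 bases before the start and overlapped a second one, and the GAS began 98 bases before it. In Igtp the GAS began 45 and the ISRE core 34 bases before the start. In Gbp2 and both Ifit genes the ISRE core lay on the opposite strand. The GBP locus of chromosome 3 holds 4 members, as annotated on GRCm38: Gbp5 (chr3:142493978-142522344), Gbp7 (chr3:142530342-142550149), Gbp3 (chr3:142560026-142573209) and Gbp2 (chr3:142620602-142638008), all on the plus strand. Ifit2 (chr19:34550694-34576419), Ifit3 (chr19:34583531-34588731) and Ifit1 (chr19:34640871-34650009) are neighbours on chromosome 19. Igtp (chr11:58199556-58207591) lies within Irgm2 (chr11:58199618-58222782) for most of its length on the same strand, so reads of these genes may be split between them. A like uncertainty holds for Ifit3, Tgtp2, Oas1a, Slfn8 and the Phf11 genes, which have near-identical copies. Parp9 and Dtx3l overlap head to head but on opposite strands, and whether their reads are split was not tested.

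The members together held 45105 UMIs in the LSM library (2786 CPM) and 5997 UMIs in the CD122+CD49a+ library (2550 CPM). At least 100 UMIs were counted for 47 of the 49 genes in the LSM library and for 23 in the other. In the LSM library Bst2, which encodes the virion-tethering protein tetherin, held 14729 UMIs, 32.7% of the whole set. It held 7.54% in the CD122+CD49a+ library, where Sp100, a nuclear body protein, held 467 UMIs and Bst2 452. Within the Ifit, Oas and Mx genes, the LSM library held most UMIs of Oas1a (506), Mx1 (505) and Oasl2 (384), and the CD122+CD49a+ library of Mx1 (120), Oasl2 (63) and Oas3 (52). Within the GTPases the leaders were Ifi47 (1023), Gbp2 (806) and Irgm1 (666) in LSM, and Ifi47 (245), Gbp4 (168) and Igtp (167) in CD122+CD49a+. Zbp1, a sensor of left-handed nucleic acid, held 1041 UMIs and led the sensors in LSM. Isg15, a ubiquitin-like modifier, held 2986, Irf7, the factor that amplifies type I interferon production, 2466, and Phf11b 3027.

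To place these transcripts in cells, barcodes were given a class from marker UMIs, using 14 lists of 96 genes that hold no member. A barcode needed UMIs of at least 2 markers and at least 3 marker UMIs, with the best list's share at least 1.5 times the next. In the LSM library 2285 barcodes got 1 class, 195 were mixed and 594 had none. In the CD122+CD49a+ library the numbers were 1042, 18 and 197. A class name stands for cells like those the markers describe, and the classes are ranges of marker UMIs rather than types: 593 LSM and 145 CD122+CD49a+ barcodes sat at the rule's minimum. The progenitor-like class overlapped the Cd209a dendritic-like class, since its median barcode held 7 UMIs of its own markers and 8 of the Cd209a list. Wfdc17 had a UMI in 86.5% of the former and 92.0% of the latter, but Cd209a itself in 1.04% of the former. In the plasmacytoid class Clec10a had a UMI in 50.8% of barcodes.

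The 2 groups of genes did not have the same order over the LSM classes. Kupffer or macrophage-like barcodes had the highest sum of the Ifit, Oas and Mx genes, at 351 CPM (259 to 466; 45 barcodes), followed by mature dendritic-like barcodes at 254 CPM (218 to 295; 157 barcodes), Cd209a dendritic at 196 CPM (183 to 210; 698 barcodes), Cd8b1 lymphocytes at 189 CPM (115 to 292; 44 barcodes) and progenitors at 187 CPM (169 to 206; 386 barcodes). The intervals of the Kupffer and mature dendritic classes overlap, that of the Cd8b1 lymphocytes overlaps all the others, and those of Cd209a dendritic and progenitor barcodes overlap, so the order of these neighbours is within counting error. CD3 lymphocytes without Cd8b1 (78.8 CPM), nonclassical monocytes (75.4 CPM), plasmacytoid dendritic (66.9 CPM) and cross-presenting dendritic barcodes (55.0 CPM) lay between. Lowest were basophil or mast-like barcodes at 16.5 CPM (4.5 to 42.2; 117 barcodes) and plasma cells at 10.3 CPM (3.33 to 23.9; 75 barcodes).

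The GTPase sum was highest in Kupffer or macrophage barcodes, at 651 CPM (523 to 801), CD3 lymphocytes without Cd8b1, at 601 CPM (460 to 772; 37 barcodes) and Cd8b1 lymphocytes, at 595 CPM (457 to 761), whose intervals overlap. Mature dendritic barcodes stood at 489 CPM (438 to 543) and Cd209a dendritic barcodes at 356 CPM (338 to 374). Progenitors stood at 209 CPM (190 to 229), plasmacytoid dendritic at 204 CPM (175 to 237) and cross-presenting dendritic at 151 CPM (134 to 169). Plasma cells at 109 CPM (81.4 to 142), nonclassical monocytes at 89.7 CPM (69.8 to 114; 302 barcodes) and basophil or mast barcodes at 70.1 CPM (40.9 to 112) came last. GTPase UMIs made up 52.8% of both sums together in progenitors and 54.3% in nonclassical monocytes, 64.5% in Cd209a dendritic barcodes and 91.4% in plasma cells. Some of these sums rest on few barcodes: 29 of the 89 GTPase UMIs of the Kupffer class lay in 1 barcode, and the class stood at 461 CPM without it, while 4 of the 8 Ifit, Oas and Mx UMIs of the CD3 lymphocytes lay in 1 barcode.

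In the CD122+CD49a+ library lymphocytes dominated, and their GTPase sum was again above their Ifit, Oas and Mx sum. CD3 lymphocytes without Cd8b1 (617 barcodes) stood at 711 CPM (658 to 768) for the GTPases and 116 CPM (94.7 to 140) for the Ifit, Oas and Mx genes. Lymphocytes without CD3 (35 barcodes) stood at 799.5 CPM (591.5 to 1057) and 65.3 CPM. Cd209a dendritic barcodes (121) stood at 469.5 CPM (396 to 553) and 292 CPM (235 to 360). Cross-presenting barcodes (131) were low for both, at 102.5 and 83.3 CPM. A single CD3 barcode held 20 of the 106 Ifit, Oas and Mx UMIs of its class, which stood at 94.0 CPM without it.

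**Figure D1:**
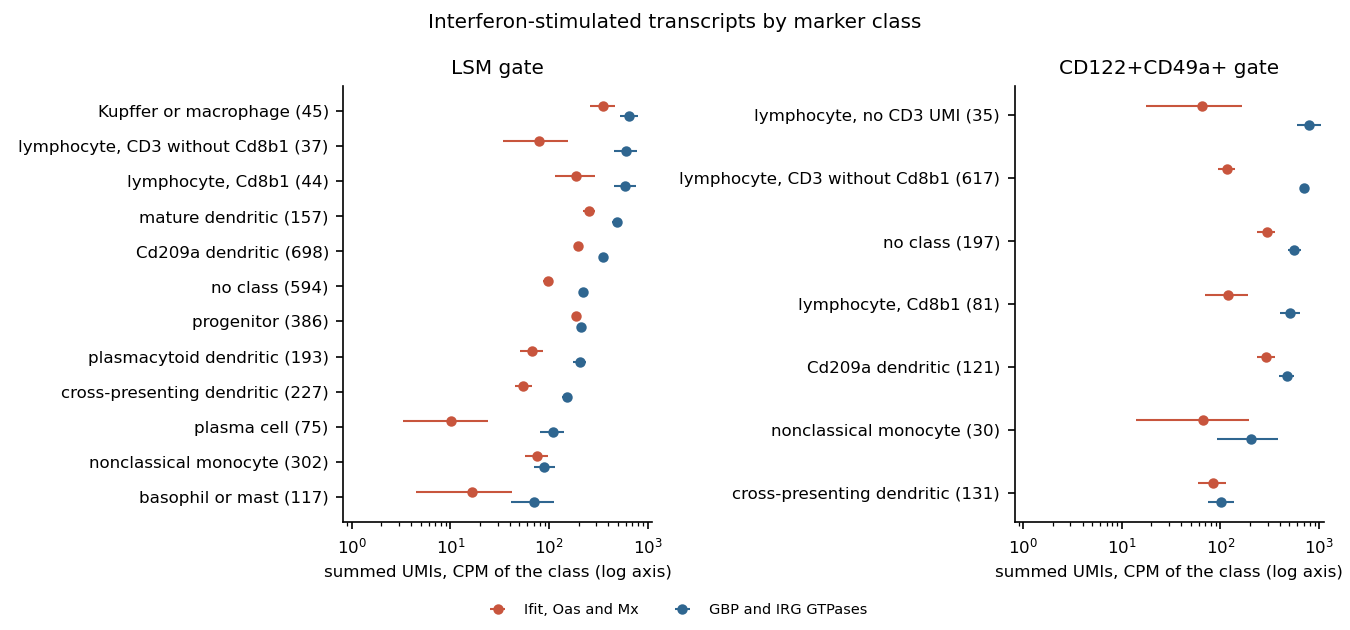
Summed UMIs of the Ifit, Oas and Mx genes (red) and of the GBP and IRG GTPases (blue) in each marker class with at least 30 barcodes, in CPM of the class on a log axis, with exact Poisson 95% intervals; the number of barcodes is in parentheses. In the LSM gate the GTPase sums run from 70.1 to 651 CPM, and in the CD122+CD49a+ gate CD3 lymphocytes hold 711 CPM of GTPase and 116 CPM of Ifit, Oas and Mx transcripts.

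Plasmacytoid dendritic-like barcodes had the highest sum over all members, 7022 CPM, and most of it was 1 gene. Bst2 stood at 5304 CPM in them against 555 CPM in the other classed barcodes, a ratio of 9.56 (9.20 to 9.93). Without Bst2 the class stood at 1717 CPM. Bst2 is a known surface marker of mouse plasmacytoid cells in the resting state. Only 3 further members were higher there: Trim30a, a ring-finger protein, at 209 against 82.4 CPM, Usp18, the protease that removes ISG15, at 40.4 against 19.1 CPM, and Irf7 at 283 against 136 CPM. Of the 48 members that passed the count minimum of 20 UMIs, 4 were higher and 16 lower, where 10.6% and 12.3% of all genes were. Gbp2 had no UMI in the class, at least 16.0-fold lower than the 55.3 CPM elsewhere. Gbp5 (7.98-fold), Phf11d (7.83-fold), Ifit3 (6.85-fold), Ifih1 (5.45-fold), a sensor of long double-stranded RNA, Rtp4 (4.94-fold) and Zbp1 (4.13-fold) were also lower.

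Mature dendritic-like barcodes, marked by Ccr7 and Fscn1, had a mixed profile. Gbp5 stood at 92.9 CPM against 12.4 CPM elsewhere, a ratio of 7.50 (5.49 to 10.2), and Mx1, the dynamin-like GTPase that blocks influenza virus, at 159 against 25.1 CPM, a ratio of 6.31 (5.02 to 7.89). Gbp2 stood at 191 against 42.3 CPM, Herc6, the main ISG15 ligase of the mouse, at 62.9 against 14.4 CPM, Gbp3 at 37.1 against 8.83 CPM, Gbp4 at 35.7 against 10.1 CPM and Phf11b at 563 against 163 CPM. Lower were Samd9l, a growth-restraining antiviral factor, at 12.9 against 74.1 CPM, Lgals3bp (4.18-fold), Isg20, an exonuclease (3.89-fold), Rtp4 (3.43-fold), Bst2 (2.51-fold) and Gbp7, at 2.86 against 10.7 CPM from 2 UMIs. In all, 10 of 48 members were higher and 15 lower, with backgrounds of 9.93% and 26.1%, and the members' median ratio was 0.814 against 0.706 over all genes. Mx1 made most of the Ifit, Oas and Mx sum, which was 95.7 CPM without it. Oasl1 was also higher (3.18-fold) and Oasl2 (2.22-fold) and Oas3 (3.0-fold, from 3 UMIs) lower, whereas Ifit1, Ifit2, Ifit3 and Oas1a stood within 2-fold of the other classes.

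In the Cd209a dendritic-like class, the largest, both sums were above the other classed barcodes by a like amount: 1.65 (1.5 to 1.81) for the Ifit, Oas and Mx genes and 1.65 (1.54 to 1.78) for the GTPases. Neither level was even over the class. Of its 698 barcodes, 579 had no UMI of Cxcl9, a chemokine gene taken up below. These stood at 180 CPM (166 to 194) for the GTPases, against 356 CPM in the whole class. For the Ifit, Oas and Mx genes they stood at 159 CPM (146 to 173), against 196 CPM. Over the whole class, 7 of the 48 members were higher and 1 lower, where 2.66% and 19.3% of all genes were. The median ratio was 1.31 against 0.791 over all genes. Ifit3 stood at 28.7 against 6.96 CPM, Gbp2 at 86.8 against 31.1 CPM and Oas1a, an oligoadenylate synthase, at 52.9 against 22.9 CPM. Slfn5 at 49.3 against 21.4 CPM, Phf11d at 38.9 against 17.7 CPM, Zbp1 at 102 against 47.8 CPM and Ifi47 at 101 against 47.4 CPM completed the list. Oasl1, a translational repressor of Irf7, was 2.58-fold lower. Ifit2 and Ifit1 stood within 2-fold.

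Progenitor-like barcodes, chosen by Cd34, Kit and other stem and progenitor genes, differed from the Cd209a class in which members were high. Rtp4, a receptor-transporting protein, stood at 98.6 against 23.7 CPM, a ratio of 4.16 (3.43 to 5.04), and Oasl1 at 19.1 against 5.04 CPM. Ddx58, which encodes the RNA sensor RIG-I, stood at 29.3 against 8.29 CPM and Oasl2 at 48.4 against 19.1 CPM. Oas3 (2.29), Gbp7 (2.70), Slfn8 (2.19), Cmpk2 (2.12) and Ifit1 (2.07) were also higher by the ratio given. Gbp4 had no UMI, at least 10.2-fold lower than elsewhere, and Phf11b stood at 30.2 against 222 CPM, Gbp2 at 9.77 against 60.5 CPM and Zbp1 at 18.1 against 78.6 CPM. Phf11d (3.48-fold), Gbp5 (3.26-fold), Mx1 (3.01-fold), Slfn5 (2.64-fold), Bst2 (2.62-fold) and Ifit3 (2.38-fold) were lower. In all, 9 members were higher and 10 lower, against backgrounds of 17.9% and 12.9%. The class sum ratio was 1.36 (1.21 to 1.52) for the Ifit, Oas and Mx genes and 0.749 (0.676 to 0.828) for the GTPases. With counts scaled by the median gene, which moved the log2 scale by 0.32, the first was 1.09.

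In cross-presenting dendritic-like barcodes 23 of 48 members were lower and 1 higher, where 21.1% and 3.29% of genes were. The one higher was Iigp1, an IRG GTPase of the vacuole, at 27.0 against 11.3 CPM. Rtp4 and Ddx58 had no UMI in the class, at least 28.2-fold and at least 9.14-fold lower. Gbp3 (7.73-fold), Ifit1 (7.39-fold), Oas1a (6.73-fold), Oasl2 (5.95-fold) and Gbp5 (5.35-fold) were lower, and 1 UMI of Gbp7 gave a ratio of 22.8-fold lower (4.01 to 908).

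Nonclassical monocyte-like barcodes were low for Usp18 (17.0-fold, from 1 UMI), Iigp1 (11.4-fold, from 1 UMI), Bst2, at 166 against 960 CPM, Isg15, at 36.4 against 199 CPM, and Ifi47 (4.52-fold). They were higher for Zbp1, at 134 against 62.8 CPM, and Parp14, an ADP-ribosyltransferase, at 66.3 against 32.6 CPM. Of 48 members 2 were higher and 21 lower, with backgrounds of 14.8% and 16.3%. Plasma cells had 2 higher members and 33 lower, with backgrounds of 10.4% and 25.4%. The higher ones were Isg20, at 205 against 29.8 CPM, a ratio of 6.87 (5.44 to 8.62), and Isg15, at 435 against 178 CPM, a ratio of 2.45 (2.11 to 2.82). Irf7 was low in plasma cells, at 20.5 against 153 CPM. Basophil or mast barcodes had 28 lower members and none of 48 higher, with backgrounds of 18.4% and 12.7%. Phf11b stood there at 8.25 against 191 CPM and Bst2 at 90.7 against 925 CPM. Kupffer or macrophage barcodes had 22 of 48 members higher and 2 lower, where 21.6% and 6.70% of genes were. Their Ifit2 stood at 43.9 against 6.58 CPM and their Gbp3 at 65.8 against 9.87 CPM, in a class of 45 barcodes.

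Further members are given by their range over the 11 LSM classes. Ifi35, an interferon-induced leucine zipper protein, ran from 41.3 CPM in basophil or mast to 150.2 CPM in cross-presenting barcodes, and Irf9 from 18.5 CPM in plasma cells to 70.4 CPM in plasmacytoid barcodes. Dtx3l, a ubiquitin ligase, ran from 12.4 CPM in basophil or mast barcodes to 78.8 CPM in CD3 lymphocytes, and Parp9, its partner and overlapping neighbour, from 8.25 to 58.5 CPM in Kupffer or macrophage barcodes. Xaf1, a promoter of cell death, ran from 16.4 CPM in plasma cells to 117 CPM in Kupffer or macrophage barcodes, and Rsad2, which encodes the antiviral enzyme viperin, from 2.05 to 36.6 CPM in the same classes. Dhx58, a regulator of the RNA sensors, had no UMI in Cd8b1 lymphocytes and stood at 39.4 CPM in CD3 lymphocytes from 4 UMIs. Kupffer or macrophage barcodes were also highest for Tgtp2 (36.6 CPM) and Eif2ak2 (43.9 CPM), and Cd8b1 lymphocytes for Sp100 (236 CPM).

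**Figure D2:**
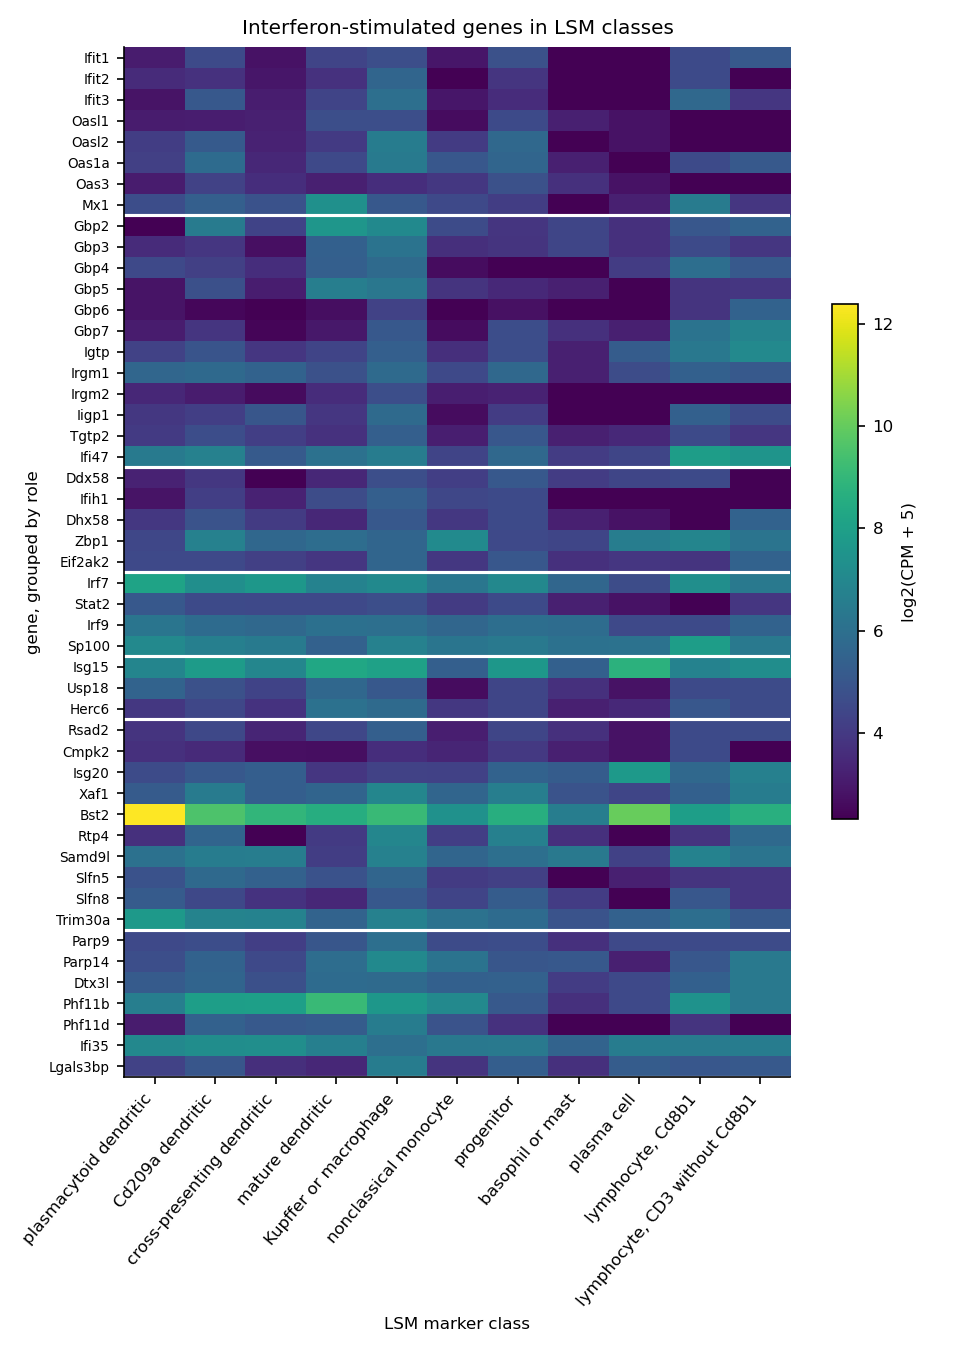
Level of each of the 49 members, as log2(CPM + 5), in the 11 LSM classes with at least 30 barcodes; white lines separate the roles, in the order Ifit, Oas and Mx genes, GTPases, sensors, transcription factors, ISG15 system, other effectors, and the ADP-ribosylation and PHF11 group. Bst2 is brightest in the plasmacytoid column, at 5304 CPM, and Phf11b in the mature dendritic column, at 563 CPM, while the basophil or mast column is dark for most genes.

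Lymphocytes, which held nearly all Ifng UMIs of these libraries, carried much GTPase transcript themselves. In the CD122+CD49a+ library the 733 lymphocytes had a GTPase sum of 690.3 CPM, 2.57 times (2.21 to 2.98) that of the 309 other classed barcodes, and an Ifit, Oas and Mx sum of 113 CPM, 0.704 times (0.549 to 0.901). Of 45 members that passed, 11 were higher and 8 lower, where 20.1% and 13% of genes were. GTPases made up 8 of the higher ones. Gbp4 stood at 120 against 13.8 CPM, a ratio of 8.73 (4.83 to 17.3), Igtp at 119 against 13.8 CPM, Gbp7 at 82.1 against 12.7 CPM and Ifi47 at 150 against 52.9 CPM. Gbp6 had 24 UMIs in lymphocytes and none in the others, at least 6.21-fold, so it met the count minimum through lymphocytes alone. Gbp2 went the other way, at 29.4 against 60.9 CPM. Ddx58 was higher, at 76.7 against 16.1 CPM, and so was Ifit3, at 19.6 against 3.45 CPM from 3 UMIs in the others. Oasl2 was lower, at 1.78 against 33.4 CPM from 2 UMIs, as were Stat2, a transcription factor, at 10.7 against 63.2 CPM, Slfn5 (5.16-fold) and Usp18 (3.87-fold). Depth moved with these sums: among lymphocytes with at least 1000 detected genes, the GTPases stood at 369 CPM and the Ifit, Oas and Mx genes at 36.4 CPM. The ratio to the other classed barcodes was then 1.90 for the GTPases and 0.304 for the Ifit, Oas and Mx genes. The part of depth in this was not tested.

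In the LSM library the CD3 lymphocytes had 10 members higher and 5 lower of 48, where 16.0% and 8.13% of genes were, and the Cd8b1 lymphocytes also 10 and 5, where 14.3% and 8.53% were. Gbp7 stood at 108 CPM in the former and 66.1 CPM in the latter, Igtp at 128 and 75.5 CPM, and Ifi47 at 177 and 236 CPM. Their GTPase sums were 2.29 and 2.26 times those of the other classed barcodes. Gbp7, Igtp and Ifi47 were thus higher in lymphocytes of both gates, while Gbp2, the GTPase gene with the most UMIs in mature dendritic barcodes, stood at 33.3 CPM in LSM lymphocytes and 29.4 CPM in those of the other gate.

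Cxcl9, a chemokine gene that is no member and is known as a target of interferon-gamma, was used as a separate readout. It had 5225 UMIs in 312 LSM barcodes, 2369 of them in the Cd209a dendritic class and 2 in lymphocytes. Barcodes with at least 3 Cxcl9 UMIs (213) were set against the 2762 with none. Their GTPase sum was 1052 against 165 CPM, a ratio of 6.39 (5.99 to 6.81), and their Ifit, Oas and Mx sum 307.5 against 121 CPM, a ratio of 2.54 (2.28 to 2.81). All 49 members passed the count minimum, and 32 were higher and none lower, where 3.35% and 22.5% of all genes were. Their median ratio was 2.82 against 0.759 over all genes. Higher were 11 of 12 GTPases, 5 of 8 Ifit, Oas and Mx genes and all 3 genes of the ISG15 system. Iigp1 stood at 87.9 against 4.97 CPM, a ratio of 17.7 (13.1 to 24.0), and Gbp2 at 305 against 19.7 CPM, a ratio of 15.4 (13.3 to 18.0). Gbp5 at 79.2 against 8.10 CPM, Gbp4 at 48.6 against 6.32 CPM, Phf11d at 113 against 15.3 CPM, Zbp1 at 262 against 42.3 CPM, Ifi47 at 253 against 42.0 CPM and Isg15 at 696 against 130.2 CPM followed. Among the Ifit, Oas and Mx genes Ifit1 stood at 42.6 against 9.30 CPM and Ifit2 at 24.0 against 5.68 CPM, while Mx1, Oas1a and Oas3 stood within 2-fold.

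Several members were level across these strata. Bst2 stood at 798 against 935 CPM, Irf9, a transcription factor, at 51.9 against 52.5 CPM, Rtp4 at 34.6 against 36.1 CPM, and Sp100 at 99.8 against 91.9 CPM. Ddx58 was the lowest by ratio, at 7.99 against 13.1 CPM (ratio 0.611, interval 0.310 to 1.09). The 2 genes highest in progenitors by ratio, Rtp4 and Oasl1, thus parted here, since Oasl1 stood at 22.0 against 6.25 CPM.

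The same split held within single classes. Among Cd209a dendritic barcodes, the 85 with at least 3 Cxcl9 UMIs had a GTPase sum of 1348 CPM against 180 CPM in the 579 with none, a ratio of 7.50 (6.73 to 8.36), and an Ifit, Oas and Mx sum of 432 against 159 CPM. Of 46 members that passed, 32 were higher and none lower, with backgrounds of 5.89% and 14.5%. Gbp2 stood at 463 against 19.8 CPM and Gbp7 at 49.0 against 2.91 CPM. Among cross-presenting barcodes, 39 against 175, the GTPase sum was 582 against 41.6 CPM, a ratio of 14.0 (10.4 to 19.0), and 16 of 27 members that passed were higher and none lower, with backgrounds of 4.08% and 11.3%. Iigp1 stood at 148 CPM against no UMI, at least 71.3-fold, so it met the count minimum through the Cxcl9 barcodes alone. Of the 12 GTPases 5 passed, and all 5 were higher. Members that pass in this way can only be called higher, which limits the count of 16. In barcodes with no class (64 against 506) 30 of 44 members were higher and none lower, with backgrounds of 4.60% and 17.6%. The CD122+CD49a+ library had 265 Cxcl9 UMIs in 40 barcodes, of which 23 held at least 3. There 34 of 46 members were higher and 1 lower than in barcodes with none, with backgrounds of 11.9% and 9.27%. That comparison ran over all barcodes, not within a class. Lymphocytes were 733 of the 1257 barcodes but held 5 of the 265 Cxcl9 UMIs, and the part of class was not tested.

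Over all barcodes and in the Cd209a and cross-presenting classes, the GTPase sum was higher at each step in the number of Cxcl9 UMIs, and the Ifit, Oas and Mx sum was so in the cross-presenting class alone of these. Over all LSM barcodes with 0, 1 to 2, 3 to 9 and at least 10 Cxcl9 UMIs (2762, 99, 83 and 130 barcodes), the GTPases stood at 165, 418, 687 and 1283 CPM. The Ifit, Oas and Mx genes stood at 121, 101, 332 and 292 CPM, and both steps down lie within overlapping intervals. In the Cd209a class the GTPases stood at 180, 618, 781 and 1701 CPM and the Ifit, Oas and Mx genes at 159, 182, 573 and 344 CPM. The intervals of that last step down did not overlap (475 to 684 and 285 to 413). Those of the GTPases in the middle bins did (520 to 730 and 666 to 909.5). In the cross-presenting class, where the middle bins hold 13 and 14 barcodes, the GTPases stood at 41.6, 239, 254 and 781 CPM and the Ifit, Oas and Mx genes at 35.4, 38.2, 61.5 and 192 CPM. The intervals of its middle bins overlapped for both sums. Depth rose in parallel, with median UMIs per barcode of 4928, 6049, 6459 and 6832 over the 4 bins of all barcodes, and its part was not tested.

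**Figure D3:**
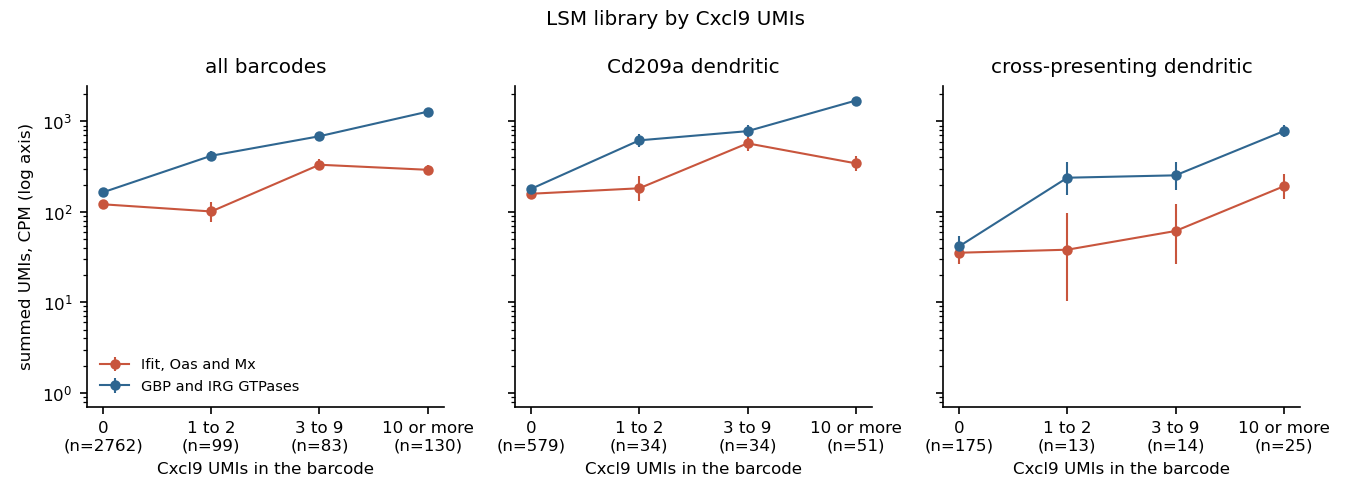
Summed UMIs of the Ifit, Oas and Mx genes (red) and of the GBP and IRG GTPases (blue) in LSM barcodes binned by Cxcl9 UMIs, in CPM on a log axis with exact Poisson 95% intervals, for all barcodes and for the Cd209a and cross-presenting dendritic classes. The GTPase line climbs from 165 to 1283 CPM over all barcodes, and the Ifit, Oas and Mx line goes from 121 CPM through 101 and 332 to 292 CPM.

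The gates were compared within the classes both held. In the Cd209a dendritic class (698 LSM and 121 CD122+CD49a+ barcodes) the LSM library stood at 0.670 times (0.538 to 0.843) the other for the Ifit, Oas and Mx genes and 0.758 times (0.638 to 0.906) for the GTPases. Both were nearer to 1 among barcodes with at least 1000 detected genes, at 0.858 and 0.965. Of 46 members 3 were higher in LSM and 13 lower, where 9.68% and 25.3% of all genes were. The 3 became 6 with at least 1000 detected genes and 5 with counts scaled by the median gene. Higher in LSM were Bst2, at 753 against 335 CPM, a ratio of 2.25 (1.85 to 2.77), Isg15, at 222 against 108 CPM, and Ifit3, at 28.7 against 9.85 CPM from 3 UMIs in the second library. Lower in LSM were Ifit2 (5.0-fold), Stat2, at 18.7 against 82.1 CPM, Lgals3bp (3.73-fold), Parp14 (2.88-fold), Eif2ak2, the kinase PKR that stops translation (2.84-fold), Oasl2 (2.62-fold) and Samd9l, at 87.3 against 223 CPM.

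In cross-presenting barcodes (227 and 131) the whole-class ratios parted, at 0.660 (0.453 to 0.980) for the Ifit, Oas and Mx genes and 1.47 (1.08 to 2.04) for the GTPases. They did not part among barcodes with no Cxcl9 UMI (175 and 126). There the GTPases stood at 41.6 CPM (31.7 to 53.5) in LSM against 72.7 CPM (50.1 to 102). The Ifit, Oas and Mx genes stood at 35.4 CPM (26.3 to 46.5) against 74.9 CPM (51.9 to 105). The part of Cxcl9 barcodes in the whole-class ratios was not tested. Over the whole class, 7 of 31 members were higher in LSM and 6 lower, with backgrounds of 14.0% and 17.4%. Bst2 was again higher, at 490.2 against 173 CPM, with Iigp1 (3.16-fold), Isg20 (2.77-fold) and Zbp1 (2.15-fold). Lgals3bp (5.39-fold), Stat2 (3.0-fold) and Samd9l (2.39-fold) were again lower, and so was Mx1 (2.55-fold). In lymphocytes (82 and 733) the ratios were 1.18 (0.753 to 1.78) and 0.863 (0.708 to 1.04), both within counting error of 1. Of 35 members 3 were higher and 8 lower, with backgrounds of 6.54% and 27.4%. Isg20, at 71.5 against 15.2 CPM, Bst2, at 324 against 123 CPM, and Irf7 (2.07-fold) were higher in LSM lymphocytes. Ddx58, at 9.53 against 76.7 CPM from 2 UMIs in LSM, Gbp4, at 42.9 against 120 CPM, and Samd9l (2.26-fold) were lower, and Irgm2 had no UMI, at least 2.68-fold lower. Nonclassical monocytes (302 and 30) had 1 of 15 members higher and 6 lower, with backgrounds of 11.8% and 19.9%.

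Across the Cd209a dendritic, cross-presenting and lymphocyte classes Bst2 was higher and Samd9l lower in LSM each time, whereas in nonclassical monocytes Bst2 stood at 166 against 112 CPM, from 5 UMIs in the second library, under 2-fold. Plasmacytoid barcodes, with their high Bst2, numbered 193 in the LSM library and 9 in the other, and the part of their RNA in the Bst2 counts of other classes was not tested. The libraries also differed in depth and in the share of barcodes left out by the filter, and in 1-library gates these cannot be told apart from the gate.

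**Figure D4:**
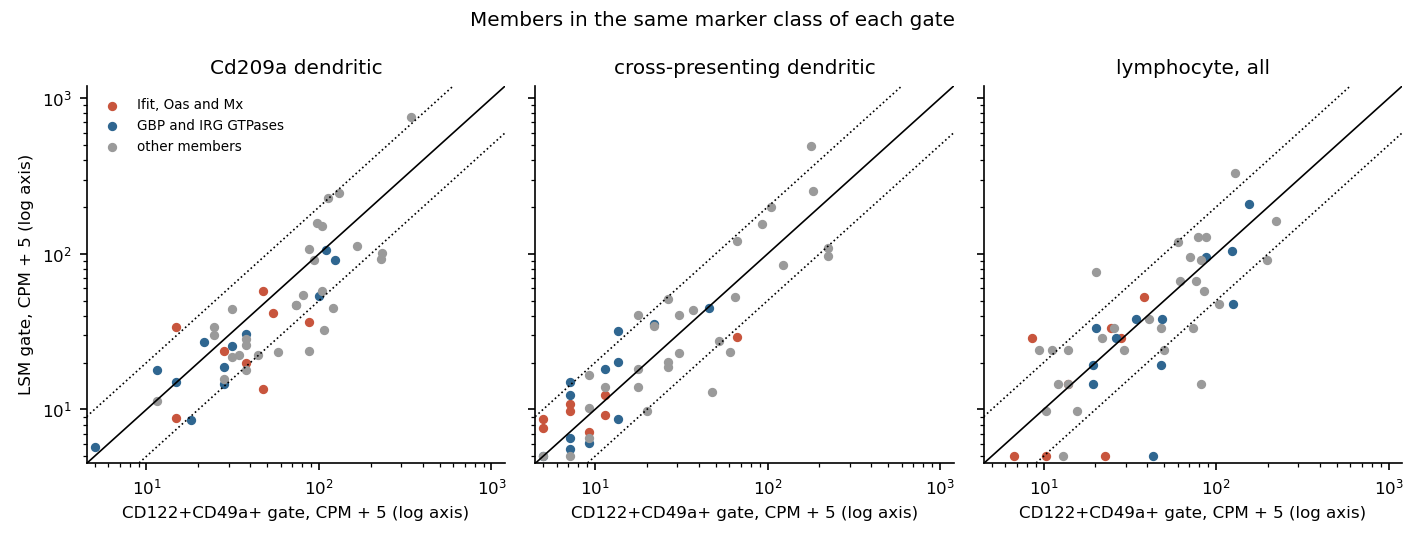
Each point is 1 member, placed by its CPM + 5 in the CD122+CD49a+ gate (x, log axis) and in the LSM gate (y, log axis) within the same marker class; the solid line marks equality and the dotted lines 2-fold. Ifit, Oas and Mx genes are red, GTPases blue and other members grey, and the topmost point of each panel is Bst2 (753, 490.2 and 324 CPM in LSM).

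Counts per cell were compared after each barcode was thinned to 1500 UMIs, which left out 108 LSM and 655 CD122+CD49a+ barcodes. An Ifit, Oas or Mx UMI was then present in 15.7% of LSM and 16.6% of CD122+CD49a+ barcodes (34.7% and 17.4% without thinning). A GTPase UMI was present in 23.1% of LSM and 36.2% of CD122+CD49a+ barcodes (45.7% and 46.7% without thinning). By class, a GTPase UMI was present in 49.0% of CD122+CD49a+ CD3 lymphocytes, 42.7% of mature dendritic, 26.5% of Cd209a dendritic, 26.2% of progenitor and 9.46% of plasma cell barcodes. An Ifit, Oas or Mx UMI was present in 24.1% of progenitors, 23.6% of mature dendritic, 19.1% of Cd209a dendritic, 9.33% of plasmacytoid and 5.73% of cross-presenting barcodes. The order of progenitors and mature dendritic barcodes turned with the depth, since at 1000 UMIs the shares were 13.7% (10.5 to 17.6) and 22.3% (16.1 to 29.6).

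The spread between cells was described by class as well. In Cd209a dendritic barcodes the Fano factor, the variance over the mean, was 2.08 for the Ifit, Oas and Mx genes and 3.21 for the GTPases, where independent draws at 1 rate give about 1. The 35 barcodes with the most UMIs, 5% of the class, held 50.5% of its Ifit, Oas and Mx UMIs and 46.8% of its GTPase UMIs. These shares were close to those over all LSM barcodes, 48.8% and 47.7%. They were 94.7% and 62.8% in cross-presenting and 33.6% and 40.3% in progenitor barcodes. The part of sparse counts in such shares was not tested. In progenitors the Fano factors were 1.06 and 2.07, the second with 12 UMIs in a single cell. Over all LSM barcodes, Spearman's rho between both counts was 0.17 (2966 barcodes that share a library) and over CD122+CD49a+ barcodes 0.18 (602), which in counts this sparse is a description only. Bst2 in plasmacytoid barcodes was unlike these: its median was 8 UMIs of 1500, and 91.7% (86.9 to 95.2) had at least 1, against 52.5% of Cd209a dendritic, 67.6% of plasma cell and 9.28% of basophil or mast barcodes at the same depth.

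**Figure D5:**
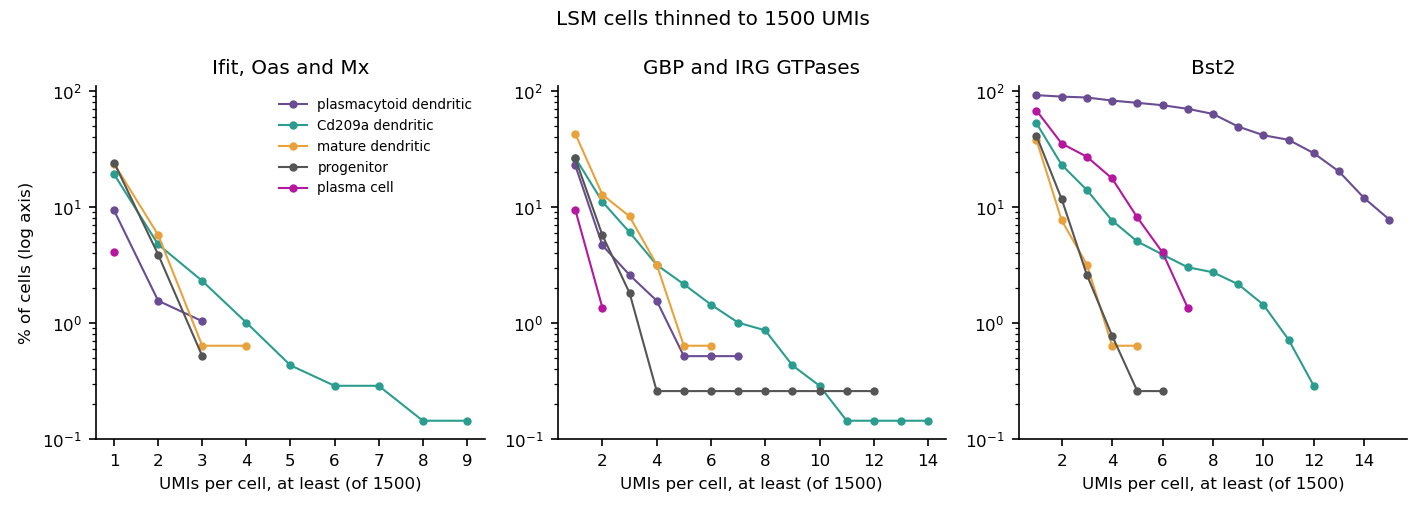
Percent of LSM cells (log axis) with at least the given number of UMIs out of 1500, for the Ifit, Oas and Mx genes, the GTPases and Bst2, in 5 marker classes; 15 and more UMIs are pooled. Bst2 declines slowly in plasmacytoid cells, of which 91.7% have a UMI, whereas the Cd209a dendritic lines of the first 2 panels start at 19.1% and 26.5% and have long tails.

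Interferon transcripts themselves were rare outside lymphocytes. Ifng, the type II ligand, had 90 UMIs in the LSM library, 86 of them in its lymphocytes, and 215 in the CD122+CD49a+ library, 214 of them in lymphocytes. Its level was 510 CPM in LSM Cd8b1 lymphocytes, 315 CPM in LSM CD3 lymphocytes and 191 CPM in all lymphocytes of the other gate. Of the type I ligands, Ifna2 had 33 UMIs in 17 LSM barcodes, 23 of the UMIs in progenitors, Ifnb1 had 5 UMIs in 5 barcodes and Ifna4 had 1 UMI. Ifne and Ifnk had none, which allows up to 0.0976% of LSM barcodes with a UMI. No type I ligand listed had a UMI in the CD122+CD49a+ library, which allows up to 0.239% of its barcodes.

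Of the receptors and signal carriers, Ifngr1 was highest in nonclassical monocytes, at 590.1 CPM, and Ifngr2 stood at 143 CPM there. Ifngr2, the chain needed for signalling, had no UMI in lymphocytes of either library, though Ifngr1 stood at 267 CPM in LSM and 253 CPM in CD122+CD49a+ lymphocytes. These zeros, in 82 and 733 barcodes, allow up to 3.66% and 0.409% of lymphocytes with a UMI. Ifnar1 (76.1 CPM) and Ifnar2 (366 CPM) were high in plasmacytoid barcodes, whose Ifit, Oas and Mx sum was 66.9 CPM. Mature dendritic barcodes had the highest Jak2 (250 CPM), Irf1 (280 CPM), Socs1 (77.1 CPM) and Cd274 (124 CPM), and Jak1 was highest in Cd8b1 lymphocytes, at 444 CPM. Tyk2, the kinase bound to Ifnar1, stood between 0 and 31.4 CPM over the LSM classes. Ciita, the master factor of MHC class II genes, stood at 51.2 CPM in Kupffer or macrophage and 40.8 CPM in Cd209a dendritic barcodes. Cxcl10 had 1132 UMIs in 238 LSM barcodes, and Ido1 stood at no more than 2.05 CPM in any LSM class.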

How the data were processed

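The authors deposited UMI counts per gene and barcode for 2 droplet libraries, with 3133 and 1655 barcodes; the matrix software was version 3.0.1 per the file headers, and the submitters' processing notes name STAR, Seurat 2.3.0 and GRCm38. Neither barcode selection nor doublet removal before deposit is stated in those sources. Counts are per UMI, and no column was normalized. Kept were barcodes with at least 500 detected genes, for 16187182 and 2351659 UMIs in all. Doublets were not removed in the main values; an alternative left out the 79 and 22 barcodes with the highest Scrublet scores. The members and lists were chosen with earlier results of these data known.

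Counts were summed per marker class and scaled to the class total (CPM). Intervals are exact Poisson for sums, exact conditional for ratios and exact binomial for shares, and UMIs from 1 barcode are not independent, so they cover counting error only. Ratios needed 20 UMIs in both sums together, so a gene could pass through 1 of the groups alone. A count of 0 was bounded with 3 counts over the group. In each comparison the text names up to 8 members in each direction with the largest ratio past 2-fold, up to 3 members of each role with most UMIs, the receptor and ligand genes of a fixed list (except a gene that is not reported here), and others chosen after their values were seen. Promoter windows are RefSeq's on GRCm38.p6, and gene positions GENCODE's on the same build. The scripts were tested on simulated data. Python 3.11.15, numpy 2.4.6, scipy 1.17.1, pandas 2.3.3, scanpy 1.11.5 and matplotlib 3.10.9 were used. Mx2 was not analysed here.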

Additional observations from a re-analysis of the deposited data

How the results depend on the processing

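No paired analysis was possible because each gate is 1 library. Over 155 results and 1255 alternative values, 1098 stayed within the main value's counting interval (or, for counts of genes, within 1.5 times) and 157 moved. A reversal means that a ratio whose main interval left out 1 crossed to the other side of 1. None did, but class sums, counts of genes and shares of cells could not be scored as reversed. The cause of the moves was not tested unless the alternative itself sets it. Leaving out barcodes over 10% mitochondrial UMIs (151 values), lifting the gene minimum (151) or leaving out the highest Scrublet scores (144) moved none. Classes from at least 3 markers and 5 marker UMIs gave Ifit, Oas and Mx sums of 216 CPM in Cd209a dendritic, 80.9 CPM in cross-presenting and 43.6 CPM in plasmacytoid barcodes, class ratios of 0.493 and 0.259 in the last 2, and Cxcl9 ratios within the Cd209a class of 2.10 for the Ifit, Oas and Mx genes and 6.45 for the GTPases. With at least 1000 detected genes, CD122+CD49a+ lymphocytes stood at 36.4 and 369 CPM, and the gate ratios of the Cd209a class at 0.858 and 0.965 with 6 members higher. The mean of per-cell CPM gave 807 CPM of GTPases in CD122+CD49a+ lymphocytes. Without the member with the most UMIs, the Ifit, Oas and Mx and the GTPase sums were 143 and 254.5 CPM (Cd209a dendritic), 30.7 and 110.5 CPM (cross-presenting), 95.7 and 297 CPM (mature dendritic), 46.1 and 121 CPM (plasmacytoid), 139 and 161 CPM (progenitor) and 80.3 and 540.4 CPM (CD122+CD49a+ lymphocytes). Scaling by the median gene gave class ratios of 1.93 and 1.94 in the Cd209a class (log2 shift -0.23), 0.643 for the plasmacytoid GTPases (shift 0.23) and 1.09 and 0.600 in progenitors, a GTPase gate ratio of 0.691 in lymphocytes (shift 0.32), and 5 members higher between the gates in the Cd209a class. With at least 1 Cxcl9 UMI the ratios were 2.05 and 5.28 over all barcodes and 2.27 and 6.33 in the Cd209a class, and with at least 5 the GTPase ratio was 6.97. Thinned to 1000 UMIs, 10.5% of LSM barcodes had an Ifit, Oas or Mx UMI, 16.6% a GTPase UMI, and 11.1% of CD122+CD49a+ barcodes an Ifit, Oas or Mx UMI. Without thinning, the LSM shares were 34.7% and 45.7% and the CD122+CD49a+ GTPase share 46.7%. The alternatives that leave out the barcode with the most UMIs, and the comparison of CD122+CD49a+ lymphocytes with the other classed barcodes, were chosen after seeing the data. Depth limits the CD122+CD49a+ library most: 3 counts there correspond to 1.28 CPM over all barcodes, against 0.185 CPM in LSM.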

Other observations

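Genes outside the set that followed it over the classes were named by the Pearson r of log2(CPM + 5) over the 11 LSM classes, among 4465 genes with at least 50 CPM in at least 1 class. The classes share 1 library and differ in size, and r is a description. Nearest to the Ifit, Oas and Mx sum were Tob2 (r = 0.89), Rap2b (0.88), Snx10 (0.85) and Rnf213 (0.85), a large ubiquitin ligase. Nearest to the GTPase sum were Naa35 (0.90), Gbp8 (0.88), a further guanylate-binding protein gene, Icam1 (0.86), an adhesion molecule gene, Ptpn2 (0.86), a tyrosine phosphatase gene, Vps29 (0.85), a part of the retromer, and Nlrc5 (0.83), the activator of MHC class I genes. The sums of both groups had r = 0.78 with each other. Among members, each set against the sum of the other members of its group, Ifi47 (0.83), Gbp4 (0.83) and Ifit3 (0.82) were nearest, and Oas3 (0.14) and Irgm2 (0.35) farthest.

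Barcodes with no class differed between the libraries. In the LSM library the 594 such barcodes stood at 98.1 CPM for the Ifit, Oas and Mx genes and 220 CPM for the GTPases, below the 138 and 257 CPM of the whole library, and 14.8% of them had a Cxcl9 UMI, against 17.0% in the Cd209a dendritic class. In the CD122+CD49a+ library the 197 such barcodes stood at 294 and 562 CPM, above the 162 and 518 CPM of the whole library, where the Ifit, Oas and Mx sum of its lymphocytes was 113 CPM.

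Single barcodes with many UMIs of the set were seen in several classes. In the Cd209a dendritic class of the LSM library, 1 barcode of 9668 UMIs held 42 of the 825 Ifit, Oas and Mx UMIs and 264 UMIs of all members but Bst2. In the mature dendritic class 1 barcode of 5293 UMIs held 23 of 178 Ifit, Oas and Mx UMIs and 159 UMIs of all members but Bst2.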
